A study of Mus musculus with 2 samples.

Results

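The integrated stress response-high (ISR-high) tumour cells were the cell barcodes with the largest share of their transcripts from Nupr1, Trib3 and Ddit3. Of 7890 barcodes kept, 393 were ISR-high: 210 of 4218 in the library from cisplatin-treated mice and 183 of 3672 in the library from vehicle-treated mice. Members were the highest 5% of each library by the summed unique molecular identifiers (UMIs) of the 3 genes over all UMIs of the barcode, counted among barcodes that had at least 500 genes and no more than 10% of their UMIs from the mitochondrial genome. The number of members was therefore fixed by the rule, and neither it nor the level of the 3 genes is a result. All other kept barcodes of the same library, 4008 in cisplatin and 3489 in vehicle, served for comparison.

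Small cell lung tumours of both groups arose in mice that carried floxed Rb and P53 alleles, a further floxed allele that is not named here, the inducible recombinase CGRPCreER and the Rosa26mTmG reporter, on a mixed strain background. Both groups shared this genotype, and recombination was restricted to cells that use the CGRP (Calca) locus, a neuroendocrine gene of the airway. Mice received 5 mg per kg cisplatin, a platinum compound that crosslinks DNA, or saline, every 4 days for 2 weeks; the library protocol also names etoposide for the treated tumours, and whether it was given is not settled by the labels. GFP-positive live cells were sorted and 5000 per group were loaded on the 10x Genomics platform. The ages of the mice and the number of animals are not given in the sources used here. With 1 library per group no test between cells or groups was made, and all intervals are exact 95% intervals that cover counting error only.

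The integrated stress response is a shared reply to several kinds of stress. Kinases that sense misfolded protein, amino acid shortage, double-stranded RNA or heme shortage phosphorylate the initiation factor eIF2, which slows most translation while the mRNA of the transcription factor ATF4 is translated more. ATF4, with partners of the C/EBP family, raises genes for amino acid uptake and synthesis, tRNA charging and redox balance, and also Ddit3 (CHOP), Trib3 and Nupr1, which are linked to cell death and survival under stress.

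The values that chose the members were unequal among the 3 genes. Nupr1 supplied 93.1% of the rule UMIs of cisplatin members and 87.7% of those of vehicle members. A member held a median of 41.5 rule UMIs in cisplatin (range 10 to 736) and 59 in vehicle (range 11 to 273). In cisplatin, 49 of the 210 members had no UMI of Trib3 or Ddit3, and 88 had all 3 genes; in vehicle, 12 of the 183 members lacked both and 115 had all 3. The limit was no break in the data: the 10 members nearest to it had 31.2 to 32.6 rule UMIs per 10000 in cisplatin, against 30 to 31.2 in the 10 barcodes just below it, and 28.2 to 29.7 in vehicle, against 25.5 to 26.6.

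Members were not set apart by depth. Their median total was 5604.5 UMIs in cisplatin, against 5955.5 in the other barcodes, and 8448 in vehicle, against 8190. The median mitochondrial share was 3.73% in cisplatin members and 3.34% in the other cisplatin barcodes, and 2.7% in vehicle members and 2.78% in the other vehicle barcodes. All 12 markers of neuroendocrine tumour cells were detected in the members of both libraries, at a summed 7885.4 CPM (UMIs of the genes scaled by all UMIs of the class) in cisplatin members, against 8751.6 in other barcodes, and 5052.1 in vehicle members, against 6601.2. Markers of other cell types were counted only where found in under 2% of the kept barcodes of the library. By this count no member carried 3 or more markers of another cell type, while 7 other barcodes in cisplatin and 27 in vehicle did. The count left out Scgb1a1, a widely detected club cell marker, of which 1 barcode supplied 48.1% of the vehicle members' UMIs. The libraries shared 23 barcode sequences, none of them a member.

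UMIs were summed over the members and over the other barcodes of each library, which gives 4 sums, and scaled to CPM. A gene was called higher or lower where the ratio of members to other barcodes, with 1 CPM added to each, passed 1.5-fold. The rule ranked these same barcodes, so the ratios describe the members and test nothing. In cisplatin 235 of 6661 genes (3.53%) were higher and 306 (4.59%) lower in the members. In vehicle 341 (5.12%) were higher and 796 (12.0%) lower. The vehicle split depended on the scaling: it was 472 higher and 597 lower with TMM factors and 537 higher and 513 lower with median-of-ratios factors. The median log2 ratio of all genes in vehicle was -0.10 with CPM and 0.01 with median-of-ratios factors. In both libraries 127 genes (1.91%) were higher and 166 (2.49%) lower. Of the genes higher in cisplatin, 54% were also higher in vehicle, and of those higher in vehicle, 37.2% were also higher in cisplatin. For lower genes these shares were 54.2% and 20.9%.

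The ATF4 pathway outside the 3 rule genes was higher in the members of both libraries. Of 58 tested genes in 5 lists (transcription factors, signalling targets, amino acid enzymes, amino acid transporters and cytosolic aminoacyl-tRNA synthetases), 29 were higher in both libraries and 0 were lower in both, where 1.91% of all tested genes were higher in both. Their median log2 ratio was 0.68 in cisplatin and 0.87 in vehicle, against -0.04 and -0.10 over all tested genes, so that relative to all genes the list medians were 0.72 and 0.97. Of the 58, 8 reached the level filter of 20 CPM through the members alone, since the other barcodes averaged less. With the filter on the other barcodes alone, 22 of 50 were higher in both libraries and 0 lower. A further 30 genes of the lists lay below the filter, of which 16 had more CPM in members than in other barcodes in both libraries and 3 had less in both.

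**Figure D1:**
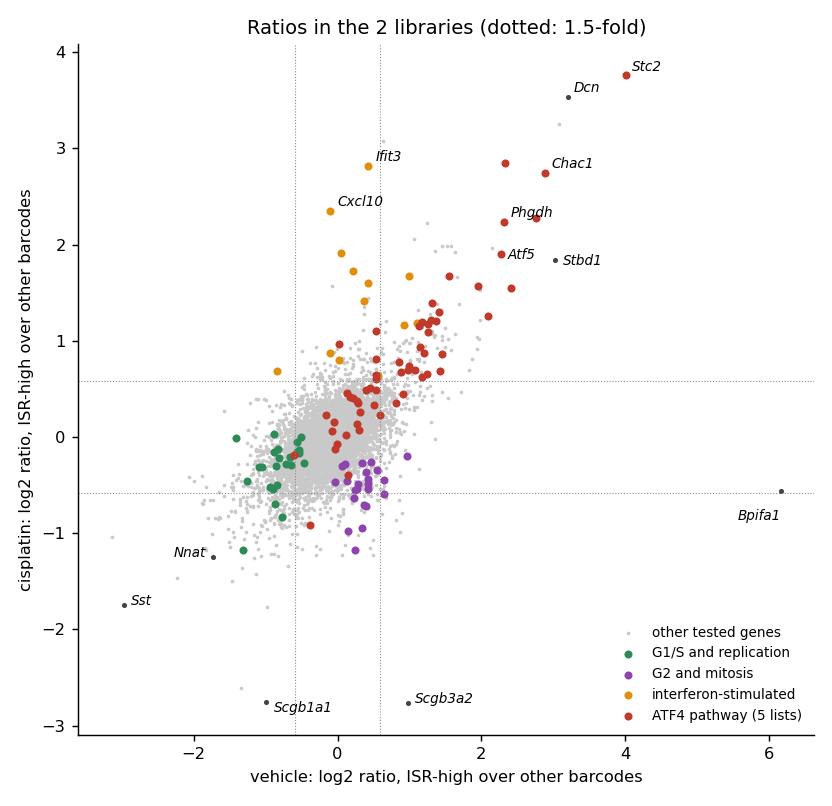
Each point is 1 of 6661 tested genes, with its log2 ratio of ISR-high over other barcodes in the vehicle library on the x axis and in the cisplatin library on the y axis; dotted lines mark 1.5-fold and colours mark gene lists. Genes of the ATF4 pathway lie to the upper right, interferon-stimulated genes high on the cisplatin axis, and mitotic genes below 0 in cisplatin and mostly above 0 in vehicle.

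Promoter sequence is shown for the pathway genes that were higher in both libraries and held TGATGNAA, the core of the C/EBP-ATF response element that ATF4 and its C/EBP partners bind. The motif was searched on both strands in RefSeq promoters of GRCm38.p6, 250 bases before to 50 after each start. Capitals mark the match, which on the opposite strand reads TTNCATCA.
Chac1, chr2:119351023-119351082, + strand: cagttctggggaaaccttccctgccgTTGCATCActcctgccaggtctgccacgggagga
Asns, chr6:7693199-7693258, - strand: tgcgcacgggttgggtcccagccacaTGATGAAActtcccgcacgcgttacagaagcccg
Herpud1, chr8:94386291-94386350, + strand: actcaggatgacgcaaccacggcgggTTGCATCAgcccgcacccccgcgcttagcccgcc
Iars, chr13:49682111-49682170, + strand: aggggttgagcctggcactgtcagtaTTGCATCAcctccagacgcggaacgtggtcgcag
Tars, chr15:11399640-11399699, - strand: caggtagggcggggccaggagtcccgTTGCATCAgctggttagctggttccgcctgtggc
Yars, chr4:129189880-129189939, + strand: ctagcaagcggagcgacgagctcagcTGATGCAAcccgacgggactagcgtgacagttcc
Aars, chr8:111033704-111033763, + strand: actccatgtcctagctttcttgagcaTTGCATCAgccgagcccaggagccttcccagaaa
The match began 193 bases before the start in Chac1, 112 bases before it in Herpud1 and Aars, 23 before it in Asns and 15 before it in Tars, and at base 8, counted from the start as 1, in Iars and base 4 in Yars. Aars held a further match at base 10. Counted per gene, the motif stood in a promoter of 7 of the 23 genes with a promoter in the table among the 29 pathway genes higher in both libraries (30.4%), in 4 of 21 for the pathway genes that were not (19%), and in 3 of 77 for the genes higher in both outside the lists (3.9%). It stood in 3 of 127 genes lower in both (2.36%), in 2.61% of tested genes with a promoter and in 4.51% of all 27025 genes of the table; counted per promoter, 3.97% of all 32851 held it. Of the 3 rule genes, which chose the members, no match was found for Ddit3. Promoters of Nupr1 and Trib3 held it and are shown as description only:
Nupr1, chr7:126625547-126625606, - strand: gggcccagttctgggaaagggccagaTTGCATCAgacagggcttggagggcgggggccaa
Trib3, chr2:152344013-152344072, - strand: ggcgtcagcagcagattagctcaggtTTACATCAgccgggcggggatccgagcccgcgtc

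Of the 8 tested transcription factors, 4 were higher in both libraries. Atf4 itself (chromosome 15, 80255184 to 80257541, GRCm38), the central factor of the pathway, stood at 428 CPM in cisplatin members (395 to 463), against 271 in other barcodes (265 to 277), and at 908 CPM in vehicle members (863 to 955), against 380 (373 to 387). Its log2 ratio was 0.66 in cisplatin and 1.25 in vehicle. Its mRNA was thus higher in the members of both libraries, and more so in vehicle; translation of it was not measured. Atf5, a related factor, stood at 375 CPM in cisplatin members and 100 in other barcodes, and at 705 CPM in vehicle members and 146 in other barcodes. Cebpg, a dimer partner of ATF4, had log2 ratios of 1.21 and 1.37, and Cebpb, another C/EBP factor, of 0.62 and 1.17. Atf3, a stress-induced repressor that is also among the genes tissue dissociation induces, was at 464 CPM in cisplatin members, against 396, and at 341 in vehicle members, against 227. Its log2 ratio of 0.23 in cisplatin did not reach the limit.

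The genes for the trigger of the pathway differed less. The list of 15 tested genes covered eIF2 kinases, eIF2, eIF2B and the eIF2 phosphatase subunits, and also held Dnajc3, Impact and Eif2a. Only Eif2s2, the beta subunit of eIF2, was higher in both libraries, where 1.91% of all tested genes were. It stood at 663 CPM in cisplatin members, against 380, and at 563 in vehicle members, against 280. In vehicle members 3 of the 15 were higher, Impact among them, and 2 lower. Over all tested genes 5.12% were higher and 12.0% lower in vehicle members. With TMM or median-of-ratios factors 5 of the 15 were higher and 1 lower. Impact stood at 34.2 CPM in vehicle members, against 15.9, and at 32.9 in cisplatin members, against 32.3. Ppp1r15a (GADD34), the inducible phosphatase subunit that ends the response, had log2 ratios of 0.36 and 0.52. Of the kinase genes, Eif2ak3 (PERK) and Eif2ak4 (GCN2) were below the level filter, and Eif2ak1 and Eif2ak2 had log2 ratios of -0.44 and -0.05 in cisplatin and 0.05 and -0.34 in vehicle. Which kinase was active cannot be read from mRNA counts.

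Among the signalling and stress targets, 6 of 12 were higher in both libraries, and with the filter on other barcodes alone 2 of 7. Stc2, Chac1, Gdf15 and Vegfa passed the filter through the members. Stc2, which encodes the secreted glycoprotein stanniocalcin 2, had the highest ratio of all named genes higher in both. It stood at 45.5 CPM in cisplatin members (35.1 to 58), against 2.42 in other barcodes (1.87 to 3.08), and at 47.2 CPM in vehicle members (37.4 to 58.7), against 1.99 (1.52 to 2.56). Its log2 ratio was 3.76 in cisplatin and 4.01 in vehicle. The members' levels were alike in the 2 libraries and far above those of other barcodes in both. Chac1, an enzyme that degrades glutathione, stood at 42.7 CPM in cisplatin members, against 5.51, and at 51.3 CPM in vehicle members, against 6.08. Eif4ebp1, an inhibitor of cap-dependent translation, stood at 174 CPM in cisplatin members, against 35, and at 232 in vehicle members, against 33.5. Gdf15, a secreted stress hormone, stood at 32.2 CPM in cisplatin members, against 10.3, and at 50.1 in vehicle members, against 8.53. Vegfa, an angiogenic growth factor also in the hypoxia list, had log2 ratios of 1.26 and 2.1, and Herpud1, a component of endoplasmic reticulum (ER) associated degradation, of 0.69 and 1.42. Sesn2, an inhibitor of mTORC1 below the level filter, stood at 19.6 CPM in cisplatin members, against 5.03, and at 41.9 in vehicle members, against 7.29. Cdkn1a (p21), a p53 target that can also respond to ATF4, did not differ past the limit, at 533 CPM in cisplatin members, against 455, and 384 in vehicle members, against 429.

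Stc2 was detected in a minority of members. At its low level these shares cannot tell expression in few members from a low level in all. A UMI was seen in 39 of 210 cisplatin members and 49 of 183 vehicle members (18.6% and 26.8%), against 1.3% and 1.52% of other barcodes. With every barcode thinned to 3000 UMIs, which left out 18 members and 343 others in cisplatin and 5 members and 141 others in vehicle, the share was 10.9% of cisplatin members (6.9 to 16.2), against 0.737% of others (0.486 to 1.07), and 14.6% of vehicle members (9.77 to 20.7), against 0.478% (0.273 to 0.775). Eif4ebp1, whose level in members was higher, was detected more often. After thinning a UMI of it was seen in 37.5% of cisplatin members, against 7.78% of others, and in 44.4% of vehicle members, against 7.41%. Without thinning the shares were 52.9%, 14.6%, 78.7% and 19.3% in that order. Barcodes marked as immune cells were used as a rough guide to free RNA. No doublet caller was run, and whether tumour transcripts in them came from free RNA or from doublets was not tested. They numbered 5 in cisplatin (median 7097 UMIs) and 18 in vehicle (median 3381). None of the 5, and none of the 15 left in vehicle after thinning, had a UMI of Stc2 or Eif4ebp1, which allows shares up to 52.2% and 21.8%. Without thinning, 4 of the 18 vehicle immune-marked barcodes (22.2%) had a UMI of Eif4ebp1, above the 19.3% of other barcodes and below the 78.7% of members.

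Enzymes that make serine, asparagine and one-carbon units were higher together: 6 of 9 tested genes in both libraries and 0 lower in either. Phgdh, the first enzyme of serine synthesis, stood at 114 CPM in cisplatin members (97.3 to 133), against 23.4 in other barcodes (21.6 to 25.2), and at 129 CPM in vehicle members (112 to 147), against 25.1 (23.4 to 27). Psat1 and Psph, which complete the pathway, had log2 ratios of 0.78 and 1.15 in cisplatin and 0.86 and 1.13 in vehicle. Asns, which makes asparagine, stood at 211 CPM in cisplatin members, against 65.6, and at 210 in vehicle members, against 70.9. Mthfd2 and Shmt2, mitochondrial one-carbon enzymes, had log2 ratios of 1.2 and 0.94 in cisplatin and 1.18 and 1.15 in vehicle. The ratios of these named genes were thus close in the 2 libraries with CPM. The median of the 9 tested genes was 0.94 in cisplatin and 1.13 in vehicle. It was 0.91 and 1.21 with TMM factors, and 0.96 and 1.24 with median-of-ratios factors. Of the 10 list genes below the filter, 4 had more CPM in members of both libraries and 3 had less.

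Of the amino acid transporters, 4 of 7 tested genes were higher in both libraries and 0 were lower in either; with the filter on other barcodes alone, 2 of 5 were higher in both, since Slc7a3 and Slc7a1 passed through the members. Slc7a3, a cationic amino acid transporter, stood at 40.6 CPM in cisplatin members, against 4.77, and at 35.4 in vehicle members, against 6.24. Slc7a5 (LAT1), which carries large neutral amino acids, stood at 74.2 CPM in cisplatin members, against 24.4, and at 76.7 in vehicle members, against 19.1. Slc3a2, its heavy chain, had log2 ratios of 1.18 and 1.26, and Slc7a1, another cationic transporter, of 0.87 and 1.2. The glutamine carriers Slc1a5, Slc38a1 and Slc38a2 lay between 0.02 and 0.37 in both libraries.

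Cytosolic aminoacyl-tRNA synthetases, which load amino acids on tRNA, split within the family: 9 of 22 were higher in both libraries and 0 lower in both (10 higher with TMM and 11 with median-of-ratios factors, and 8 of 21 with the filter on other barcodes alone, which leaves out Iars). Sars (serine), at 350 CPM in cisplatin members, against 142, and 403 in vehicle members, against 151, was among the higher ones, with Iars (isoleucine; log2 ratios 1.39 and 1.32), Cars (cysteine; 1.22 and 1.3) and Nars (asparagine; 1.09 and 1.26). Eprs, which charges both glutamate and proline, had log2 ratios of 0.86 and 1.46, and Tars, Yars, Mars and Aars lay between 0.68 and 1.08. The enzymes for lysine, tryptophan, aspartate, histidine, glutamine and phenylalanine (Kars, Wars, Dars, Hars, Qars and Farsa) did not reach the limit upwards in either library: their log2 ratios were highest at 0.06 in cisplatin (Kars) and 0.15 in vehicle (Qars). Farsa was lower in cisplatin members, with a log2 ratio of -0.91, and Hars in vehicle members, with -0.61, a call that was lost with both other scalings.

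**Figure D2:**
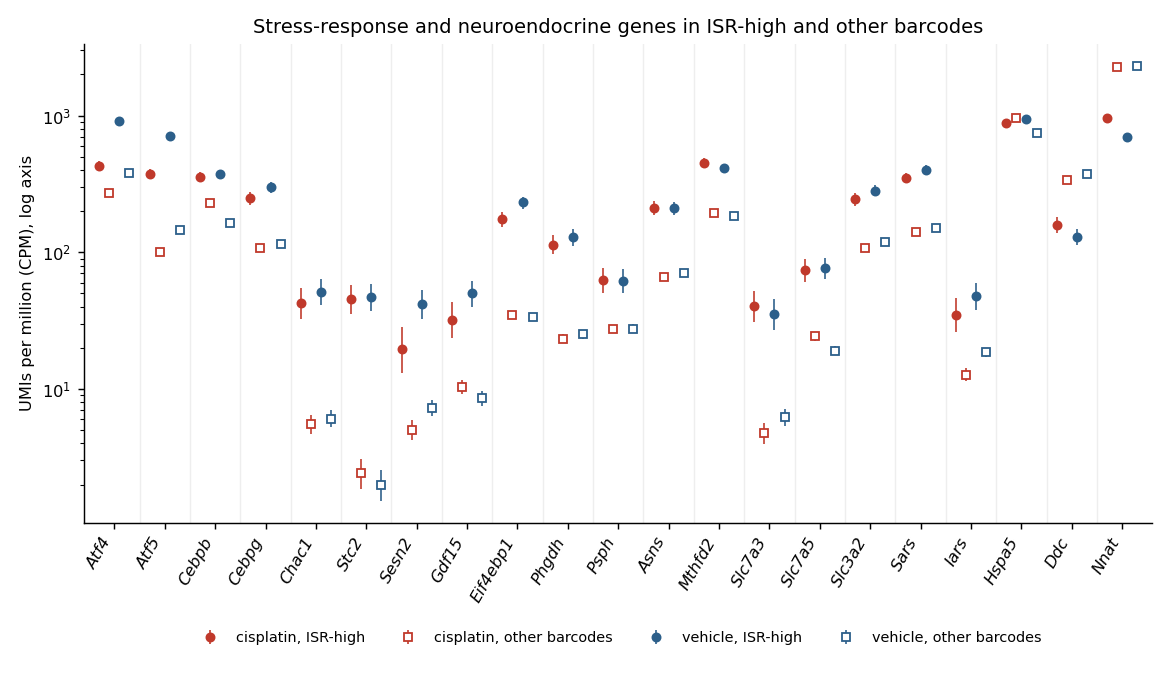
Level in CPM, on a log axis, of 21 genes in ISR-high barcodes (filled circles) and other barcodes (open squares) of the cisplatin (red) and vehicle (blue) libraries, with bars for exact 95% Poisson intervals. Each ATF4 pathway gene shown is higher in ISR-high barcodes of both libraries, Hspa5 lies close to the other barcodes, and Ddc and Nnat are lower.

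The other arms of the stress response to misfolded protein were near the all-gene median in cisplatin members. Of 25 tested genes of the XBP1 and ATF6 branches and ER chaperones, 1 was higher and 1 lower in cisplatin members. In vehicle members 7 were higher and 0 lower (9 higher with TMM and 11 with median-of-ratios factors). Over all tested genes 3.53% were higher and 4.59% lower in cisplatin members, and 5.12% higher and 12.0% lower in vehicle members. The list median log2 ratio was -0.07 in cisplatin and 0.40 in vehicle; the cisplatin value lay below 0 and the vehicle value above 0 with each of the 3 scalings. Hspa5 (BiP), the main ER chaperone, stood at 884 CPM in cisplatin members, against 965, and at 945 in vehicle members, against 745. Hsp90b1 and Calr, further ER chaperones, had log2 ratios of -0.16 and -0.21 in cisplatin and 0.73 and 0.59 in vehicle. In vehicle members Xbp1, the factor spliced by IRE1, had a log2 ratio of 0.69, against 0.26 in cisplatin. Of 13 tested genes of the mitochondrial unfolded protein response, 2 were higher in both libraries, namely Gdf15, which the signalling list also holds, and Hspa9, a mitochondrial chaperone, at 324 CPM in cisplatin members, against 143, and 327 in vehicle members, against 141. Of 12 tested apoptosis regulators, 0 were higher or lower in both libraries. Bbc3 (PUMA) had log2 ratios of 0.51 and 0.45. Over all tested genes 1.91% were higher in both libraries and 2.49% lower in both.

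**Figure D3:**
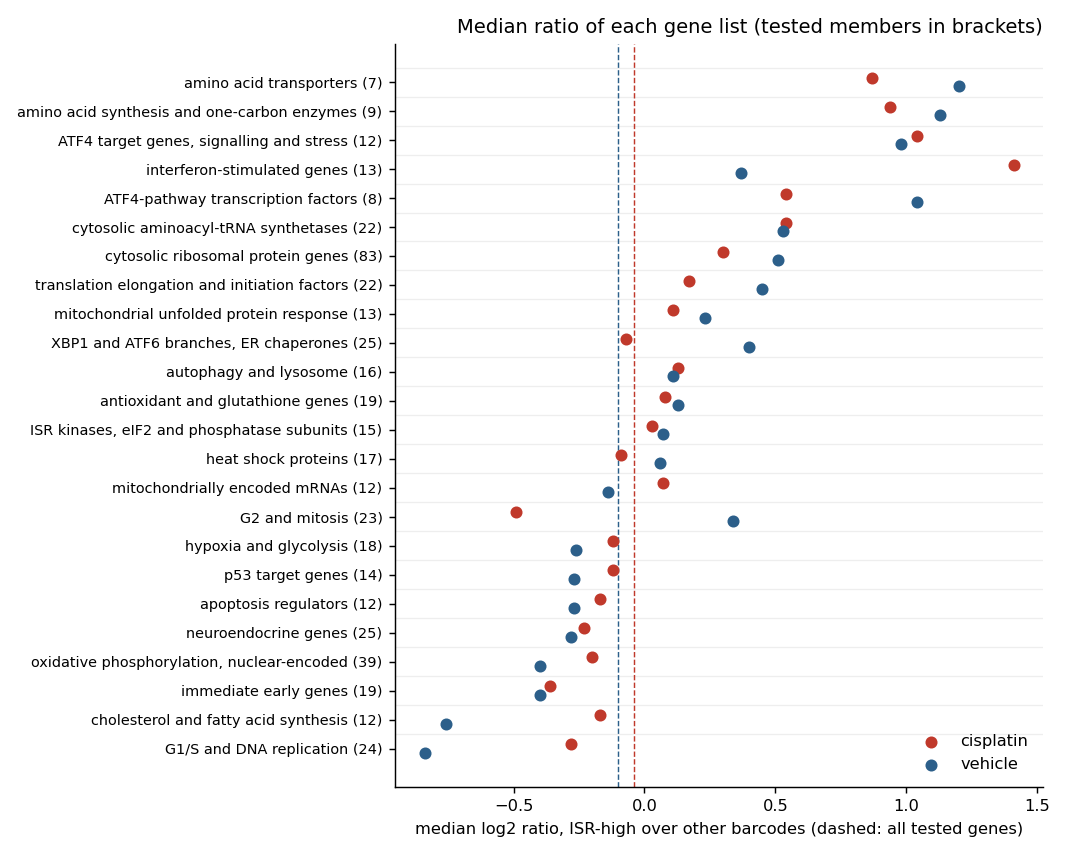
Median log2 ratio of ISR-high over other barcodes for each of 24 gene lists, in cisplatin (red) and vehicle (blue), with the number of tested genes in brackets and dashed lines at the medians of all tested genes (-0.04 and -0.10). The ATF4 lists lie at 0.53 or above in both libraries, and interferon-stimulated genes (1.41 and 0.37) and G2 and mitosis (-0.49 and 0.34) have the medians farthest apart between the libraries.

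Ribosomal protein genes and mitochondrial respiration genes leaned in opposite directions. Of 83 tested ribosomal protein genes, 79 had a ratio above 0 in both libraries, against 26.1% of all tested genes, and their median log2 ratio was 0.30 in cisplatin and 0.51 in vehicle. Few passed the limit in cisplatin (1), and 26 did in vehicle, a count that was 42 with TMM and 50 with median-of-ratios factors. Over all tested genes 3.53% were higher in cisplatin members and 5.12% in vehicle members. Many ribosomal protein genes have near-identical pseudogenes, which makes their counts uncertain. Of 39 tested nuclear genes of oxidative phosphorylation, 35 lay below 0 in both libraries, against 42.1% of all tested genes, with medians of -0.20 and -0.40. Cox6a2, a subunit of cytochrome c oxidase best known from muscle that is not in this list, stood at 1009.7 CPM in cisplatin members, against 319, and at 1126.8 in vehicle members, against 356.

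Further stress and metabolic lists held few genes past the limit in both libraries, though often a larger share than among all genes. Over all tested genes 1.91% were higher in both and 2.49% lower in both. Antioxidant genes had 2 of 19 higher in both, Mt1, a metal-binding protein, at 3680.8 CPM in cisplatin members, against 1819.8, and 2742.4 in vehicle members, against 699, and Hmox1, a heme-degrading enzyme, with log2 ratios of 0.94 and 1.49. The p53 targets had 2 of 14 higher in both, Gdf15 and Plk2 (1 with TMM factors). Hypoxia and glycolysis had 1 of 18 (Vegfa), which was 2 with TMM or median-of-ratios factors and 0 of 15 with the filter on other barcodes alone. That filter also left out Hmox1 and Gdf15, so that the antioxidant, p53 and mitochondrial unfolded protein lists had 1 gene each higher in both. Autophagy had 1 of 16 (Sqstm1), while heat shock proteins (17 tested) and mRNAs of the mitochondrial genome (12 tested) had 0 past the limit in both libraries in either direction. Of 22 translation factors, 0 passed in cisplatin, and 7 were higher and 1 lower in vehicle members. In vehicle members 5.12% of all tested genes were higher and 12.0% lower. Of 19 immediate early genes, which dissociation and sorting can induce, 1 was higher in both (Myc) and 4 lower (Fos, Egr2, Nr4a1 and Zfp36); with TMM or median-of-ratios factors 1 was lower in both.

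The members had less of several neuroendocrine transcripts. Of 25 tested neuroendocrine genes, 5 were lower (4 with median-of-ratios factors) and 0 higher in both libraries, where 2.49% of all tested genes were lower in both. Nnat, a small membrane protein of neuroendocrine cells, stood at 956 CPM in cisplatin members (906 to 1007.8), against 2279 (2261.1 to 2297), and at 695 CPM in vehicle members (656 to 736), against 2301 (2284.1 to 2318.1). Ddc, which decarboxylates aromatic amino acids, stood at 158 CPM in cisplatin members, against 337, and at 130 in vehicle members, against 374. Dll3, a Notch ligand, had log2 ratios of -0.93 and -1.05, and Elavl3, a neuronal RNA-binding protein, of -0.60 and -1.17. The secretory granule protein Chga had log2 ratios of -0.32 and -0.61, and Insm1, a neuroendocrine factor, of -0.06 and 0.21. Sst, the hormone somatostatin, stood at 74.2 CPM in cisplatin members, against 251, with 47.2% of the members' UMIs from 1 barcode. In vehicle members it stood at 4.72 CPM, against 43.8, from 8 UMIs in 4 members, of which 1 supplied 62.5%. Barcodes with 3 or more UMIs of delta-like endocrine markers, Sst among them, made up 14.3% of cisplatin members, against 19.2% of other barcodes, and 0.546% of vehicle members, against 0.602%; after thinning the shares were 13%, 16.5%, 0% and 0.508% in that order. Of the immune-marked barcodes 2 of 5 in cisplatin (40%) and 0 of 15 in vehicle passed after thinning, with an interval of 5.27 to 85.3% in cisplatin that holds the shares of both members and others.

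Other genes past the limit in both libraries were of mixed function. Of those named next, Tnfrsf11b, Stbd1, Cxcl17 and Tenm4 averaged under 20 CPM in other barcodes and passed the level filter through the members. Dcn, the matrix proteoglycan decorin, stood at 156 CPM in cisplatin members (136 to 178), against 12.5 (11.2 to 13.9), and at 279 CPM in vehicle members (255 to 306), against 29.6 (27.7 to 31.6). Decorin is a fibroblast marker. Col1a1, Col1a2, Col3a1, Col6a1, Lum, Mgp, Pdgfra and Pdgfrb had 0 UMIs in the members of both libraries. Members held 1428212 UMIs in cisplatin, against 27237480 in other barcodes, and 1695937 in vehicle, against 30609209. A rare transcript can therefore be at 0 in members through depth alone, and the source of Dcn was not tested. Over all 14 fibroblast markers the summed level was 239 CPM in cisplatin members, against 148, and 305 in vehicle members, against 101. These sums include Dcn, which supplied 156 and 279 CPM in members. Only 1 of the 14 markers in cisplatin and 2 in vehicle had more CPM in members than in other barcodes, and 10 and 8 were at 0 in members. Apart from Dcn, no marker was past 1.5-fold higher in both. Dcn had a UMI in 48 cisplatin members and 77 vehicle members, and after thinning in 17.2% of cisplatin members, against 2.05% of others, and 28.7% of vehicle members, against 4.78% (22.9%, 4.07%, 42.1% and 9.17% without thinning), and in none of the immune-marked barcodes. Tnfrsf11b (osteoprotegerin), a decoy receptor, stood at 49 CPM in cisplatin members, against 4.26, and at 26.5 in vehicle members, against 2.25, but came from 17 and 11 barcodes. Stbd1, a glycogen-binding protein, stood at 56.7 CPM in cisplatin members, against 15.2, and at 124 in vehicle members, against 14.4. Cldn4, a tight junction protein, Cxcl17, a mucosal chemokine, and Tenm4, a neuronal adhesion protein, had log2 ratios of 1.92, 1.99 and 1.96 in cisplatin and 1.63, 1.58 and 2.15 in vehicle. Sqstm1 (p62), an autophagy receptor, had 1.13 and 1.49, and Myc 1.14 and 1.18.

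The members were also described by their UMIs of Trib3 and Ddit3. These are rule genes and the classes are raw counts that go up with depth, so the following is a description and no finding on the level of the pathway. In cisplatin, the 49 members with Nupr1 alone had 4524.9 CPM over the 5 ATF4 pathway lists (4268.6 to 4792.7), close to the 4607.8 CPM of the other cisplatin barcodes; members with 1 to 4 UMIs of Trib3 and Ddit3 had 7299.7 CPM and those with 5 or more 8944.5. In vehicle the 12 members with Nupr1 alone had 6878.9 CPM, those with 1 to 4 UMIs 7841.7 and those with 5 or more 10139.1, against 4917.9 in the other vehicle barcodes. Chac1 followed the same order, with 11.7 (2.41 to 34.1), 32.7 (18.7 to 53) and 61.6 CPM (44.4 to 83.3) in cisplatin and 11.8 (0.3 to 66), 27.3 (13.6 to 48.8) and 62.1 CPM (48.8 to 77.8) in vehicle. The lowest value of each library rests on 3 UMIs and 1 UMI. Depth moved with these classes, with median totals of 4617, 5171 and 7732.5 UMIs in cisplatin and 6764, 7363 and 9256.5 in vehicle, and its part in the order was not tested.

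Per barcode, the 3 lists of ATF4 targets (signalling, enzymes and transporters) had a median of 3012.3 CPM in cisplatin members (quartiles 1877.1 and 4919.8), against 1708.1 in other barcodes (1186.8 and 2406.5), and 3684 CPM in vehicle members (2644.3 and 4780.6), against 1873.1 (1400.1 and 2555.7). The classes overlapped: 62.4% of cisplatin members (55.5 to 69) and 77% of vehicle members (70.3 to 82.9) lay above the upper quartile of the other barcodes of their library.

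**Figure D4:**
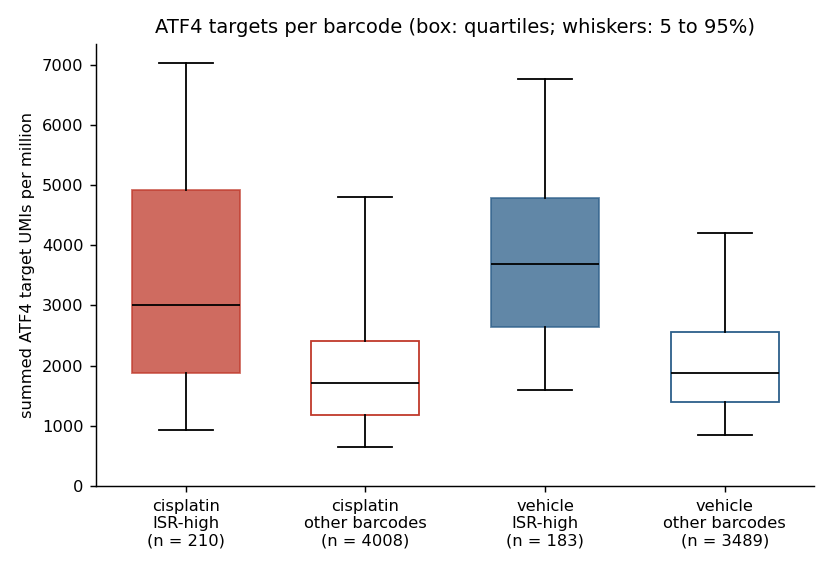
Summed CPM of the 3 ATF4 target lists per barcode, for ISR-high and other barcodes of each library; boxes show the median and quartiles, whiskers the 5th and the 95th percentile. The medians are 3012.3 and 1708.1 in cisplatin and 3684 and 1873.1 in vehicle, and the ranges overlap.

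The level of the pathway did not begin at the limit. Barcodes ranked in the highest 10% but below the members already had 3731.7 CPM of ATF4 targets in cisplatin, against 3602 in the lower-ranked and 3512.4 in the upper-ranked members, and 3513.3 CPM in vehicle, against 3722.1 and 4119. Barcodes with no rule UMI had 1846.5 CPM in cisplatin and 2011.1 in vehicle, and those in between 1960.2 and 2076.4. These near-members are counted among the other barcodes in every ratio given here. Nnat was lower still within the members: it was at 1337.2 CPM just below the limit, 1101.5 in lower-ranked and 798 in upper-ranked cisplatin members, and at 1508.9, 880 and 508 in vehicle.

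**Figure D5:**
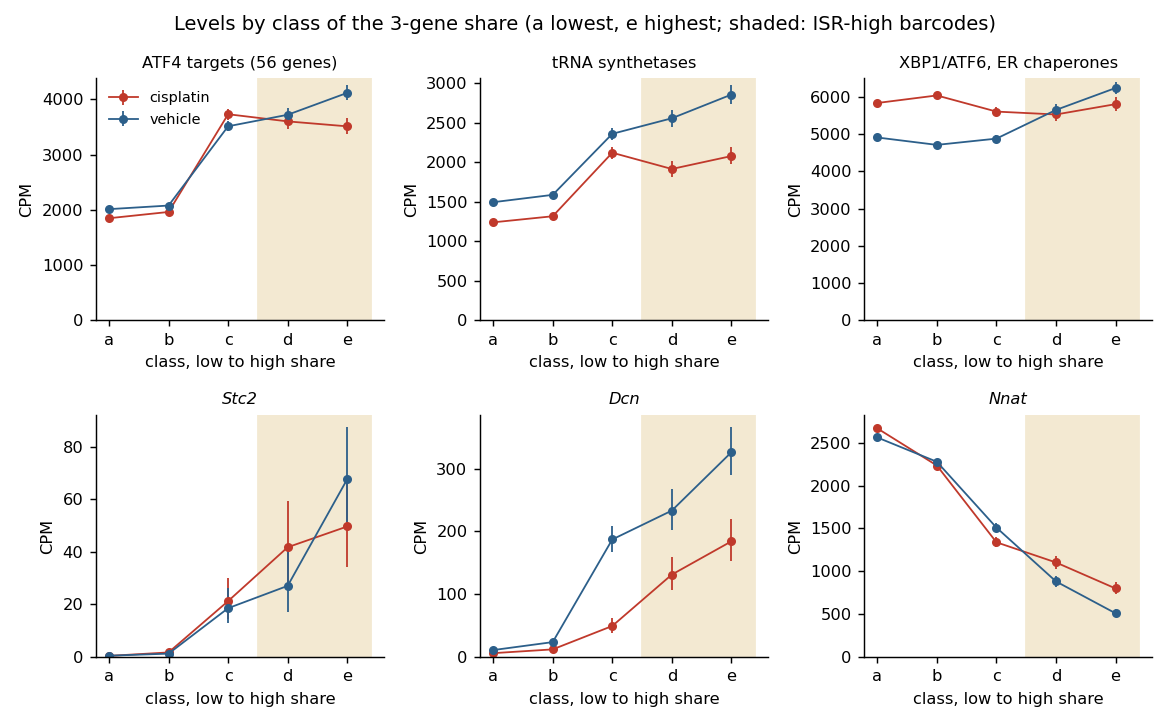
Level in CPM over 5 classes of the 3-gene share (a: 0; b: above 0 and below the highest 10%; c: the highest 10% without members; d and e: lower-ranked and upper-ranked members) in cisplatin (red) and vehicle (blue), with exact 95% Poisson intervals. ATF4 targets and tRNA synthetases in class c are closer to the members than to class b in both libraries, while Stc2 and Dcn are highest and Nnat lowest in class e.

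Between the libraries, the lists whose ratios lay farthest apart were interferon-stimulated and mitotic genes; with 1 library each, treatment and library cannot be told apart. The log2 ratio of members to other barcodes was past 1.5-fold higher in cisplatin than in vehicle for 499 genes (7.49%) and lower for 268 (4.02%); the split was 303 and 435 with TMM and 325 and 412 with median-of-ratios factors. All 13 tested interferon-stimulated genes were higher in cisplatin members and 3 in vehicle members, where 3.53% and 5.12% of all tested genes were. Of the 13, 4 averaged under 20 CPM in other barcodes and passed the filter through the members. The list's summed level was 1627.2 CPM in cisplatin members (1561.7 to 1694.7), against 602.2, and 620.9 CPM in vehicle members (584 to 659.6), against 473. Cxcl10, an interferon-induced chemokine, stood at 137 CPM in cisplatin members, against 26, with 53.8% of its UMIs from 1 barcode, and at 4.13 in vehicle members, against 4.51. Ifit3, an antiviral effector, stood at 89.6 CPM in cisplatin members from 11 barcodes, against 11.8, and at 4.13 in vehicle members, against 2.81. The 10 members with most interferon UMIs held 53.8% of them in cisplatin and 35.5% in vehicle. Barcodes with 3 or more UMIs over 5 interferon genes made up 16.1% of cisplatin members after thinning (11.2 to 22.1), against 5.24% (4.54 to 6.01), and 6.74% of vehicle members (3.53 to 11.5), against 2.78% (2.25 to 3.39); without thinning the shares were 25.7%, 11.9%, 21.9% and 10.6%, and no immune-marked barcode passed. With these barcodes left out before ranking, the log2 ratio of Ifit3, which is 1 of the 5 genes that marked them, was -1.36 in cisplatin.

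Genes of G2 and mitosis leaned down in cisplatin members and up in vehicle members. Of 23 tested, 7 were lower and 0 higher in cisplatin members, and 3 were higher and 0 lower in vehicle members. Among all tested genes, 3.53% were higher and 4.59% lower in cisplatin members, and 5.12% higher and 12.0% lower in vehicle members. The list had median log2 ratios of -0.49 in cisplatin and 0.34 in vehicle. Ube2c, a ubiquitin enzyme of mitotic exit, stood at 336 CPM in cisplatin members, against 506, and at 600 in vehicle members, against 382. By rank, the whole list stood at 2468.2 CPM in lower-ranked and 2031.9 in upper-ranked cisplatin members, against 4015.7 just below the limit. In vehicle the list stood at 5001 and 3225.7 CPM, against 4974.7 just below the limit and 3159.1 in all other barcodes. The list thus did not change steadily with rank, and upper-ranked vehicle members were close to other barcodes. The median member had 397.5 CPM of the list in cisplatin, against 476.2 in other barcodes, and 382.8 in vehicle, against 431, so the vehicle difference lay in the upper part of the range, with upper quartiles of 2425.4 and 1450.1 CPM. Barcodes with 2 or more UMIs of 10 mitotic markers made up 29.2% of cisplatin members after thinning (22.8 to 36.1), against 35.3% (33.7 to 36.8), and 30.3% of vehicle members (23.7 to 37.7), against 25.4% (23.9 to 26.9), and 41%, 44.8%, 49.7% and 43% without thinning. The intervals of members and others overlap in both libraries. Of the immune-marked barcodes 1 of 5 (20%) and 1 of 15 (6.67%) passed after thinning. The cisplatin direction depended on Nupr1: with members chosen by Trib3 and Ddit3 alone, Ube2c had a log2 ratio of 0.20 in cisplatin. Genes of G1/S and DNA replication lay below 0 in both libraries for 22 of 24 tested genes, against 42.1% of all tested genes. Of the 24, 3 were lower in cisplatin members, against 4.59% of all tested genes. In vehicle members 18 were lower (17 with TMM and 16 with median-of-ratios factors), against 12.0%. Of 12 tested genes of cholesterol and fatty acid synthesis, 0 were lower in cisplatin members and 8 in vehicle members, against the same shares over all genes. Idi1 and Hmgcs1 of the sterol pathway were among the 8, with log2 ratios of -0.46 and -0.09 in cisplatin and -1.34 and -1.21 in vehicle.

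Single genes past 1.5-fold in opposite directions were few: 1 of 6661 (0.0150%) was higher in cisplatin members and lower in vehicle members, and 8 (0.120%) were lower in cisplatin members and higher in vehicle members.

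A few differences between the libraries rested on single barcodes. Bpifa1, an airway secretory protein, had 146 CPM in vehicle members from 5 barcodes, of which 1 supplied 56.9%, against 1.05 in other barcodes; cisplatin members had no UMI, against 0.477 CPM. Scgb3a2, a club cell secretoglobin, stood at 5.6 CPM in cisplatin members, against 43.9, and at 170 in vehicle members, against 85.8, with 55.2% of the vehicle members' UMIs from 1 barcode. Over all 7 club and secretory markers the summed level was 321 CPM in cisplatin members, against 2195.1, and 558 in vehicle members, against 869, with 2 and 1 of the 7 at 0 in members. Most of the cisplatin sums was Scgb1a1, at 309 CPM in members, against 2091.8. The direction of Scgb1a1 in cisplatin was reversed with members ranked by summed UMIs.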

How the data were processed

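Single-cell RNA was counted in 1 cisplatin and 1 vehicle library of 28692 genes. The deposited values are whole UMI counts per gene and barcode, not normalized, per the file headers; the submitters' processing notes give Cell Ranger 2.0.2 and mm10. The files held 4254 cisplatin and 3726 vehicle barcodes with 28777462 and 32519922 UMIs; 36 and 54 barcodes failed the limits on genes or mitochondrial share. Barcodes of 1 library are not independent samples. No doublet caller was run and no barcode was removed as a doublet. Counts were summed over members and over other barcodes; tested genes averaged at least 20 CPM over the 4 sums, without the 3 rule genes. Sums have exact Poisson and shares exact Clopper-Pearson 95% intervals. Alternatives changed the share of barcodes taken, the rule genes, the scaling, the level filter, the CPM added, the fold limit, the depth and the barcodes kept. Promoter sequences are from RefSeq (GRCm38.p6). Chromosome positions are from GENCODE M21 (GRCm38), in which 28416 gene IDs were found and 276 were not.

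Members, 24 gene lists and marker sets were chosen with earlier results of these data known. Named genes were the 15 highest and 15 lowest by the weaker of both ratios, the 8 highest and 8 lowest differences between libraries, up to 4 genes per list (mitochondrial, ribosomal protein, haemoglobin, predicted and sex-linked marker genes left out), and Atf4, Chac1, Asns, Sesn2, Atf3, Cdkn1a, Hspa5, Chga, Dcn and a gene not reported here; other list members were named after their values were seen. On simulated sums of 6677 genes, 99% of genes raised 2-fold and 98.8% of those lowered were called in both libraries, and 0% of unchanged genes. In single libraries 0.831% of unchanged genes were called in cisplatin and 0.246% in vehicle. The simulated sums held Poisson counting error only and no spread between barcodes. These rates therefore do not cover genes whose UMIs came from few barcodes. Python 3.11.15, numpy 2.4.6, scipy 1.17.1, pandas 2.3.3, matplotlib 3.10.9, R 4.3.3, edgeR 4.0.16 (TMM factors) and DESeq2 1.42.0 (median-of-ratios factors) were used.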

Additional observations from a re-analysis of the deposited data

Results flagged for a closer look

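In 9 genes the members were past 1.5-fold higher than other barcodes in one library and past 1.5-fold lower in the other. With 1 library per group the differences were not tested. Ifih1, an RNA sensor induced by interferon, was higher in cisplatin members (49.7 CPM, against 30.4) and lower in vehicle members (23.6, against 43), a difference of log2 ratios of 1.53. The other 8 were lower in cisplatin members and higher in vehicle members. Most of these act in mitosis: the differences were -1.68 for Aspm, -1.69 for Nek2, -1.85 for Fam83d, -1.24 for Ube2c, -1.51 for Cdkn3 and -1.42 for Cdca2. The difference was -1.30 for Fam71a and -3.74 for Scgb3a2, a club cell gene of which 1 barcode supplied 55.2% of the vehicle members' UMIs. All tested genes gave 1 (0.0150%) of the first kind and 8 (0.120%) of the second.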

How the results depend on the processing

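Across 23 alternatives, 4 of them chosen after seeing the data (without delta-like barcodes, without interferon-marked barcodes, without members that lack Trib3 and Ddit3, and a level filter on other barcodes alone), the ATF4 pathway count higher in both libraries ran between 18 and 42, and 0 genes of it were lower in both. Under TMM or median-of-ratios scaling list medians kept their sign, except that of the eIF2 kinase and phosphatase list in cisplatin, which was 0.03 and with TMM -0.00. No paired analysis was possible because each group had 1 library.

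Counts are given in the order higher and lower in cisplatin members, higher and lower in vehicle members, higher and lower in both, and ratio higher and lower in cisplatin than in vehicle. A 2-fold limit gave 77, 50, 106, 170, 56, 24, 64 and 53 genes, and 18 ATF4 pathway genes higher in both. A filter at 50 CPM gave 102, 124, 173, 376, 72, 81, 159 and 92, with 18 pathway genes, and no filter gave 1393, 1923, 1302, 2788, 357, 722, 2737 and 2036; these differ in the number of genes tested. For the last pair of counts, TMM gave 303 and 435, median-of-ratios 325 and 412, and ranking by summed UMIs 272 for the first. Median-of-ratios gave 537 and 513 in vehicle. Taking the highest 10% gave 136 lower in cisplatin, 292 in vehicle, 83 in both, and 145 and 117 for the differences. Taking the highest 2.5% gave 689 lower in cisplatin, 335 in both and 531 for the lower difference. Thinning gave 570 lower in cisplatin and differences of 906 and 602. The score without Nupr1 shared 86 of 210 cisplatin and 126 of 183 vehicle members and gave 518 higher in cisplatin and 249 in both. Without delta-like barcodes 498 genes were lower in cisplatin. The cause was not tested for these.

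Genes chosen by the naming rule changed sign as follows, as log2 ratios. With the score without Nupr1, in cisplatin, Aspm had 0.95, Aurkb 0.83, Ccne1 0.27, Dlgap5 0.28, Fam83d 0.22, Kif18a 0.77, Kif20a 0.29, Nek2 0.46, Rrm2 0.60 and Ube2c 0.20, and in vehicle Bpifa1 -0.34, Rrm2 0.11 and Scgb3a2 -3.87. With the highest 10%, Aspm had 0.21 and Aurkb 0.02 in cisplatin and Calcb 0.46 in vehicle. Ranked by summed UMIs, Aurkb had 0.06, Ccne1 0.04, Mgst1 3.37, Scgb1a1 5.67 and Scgb3a2 4.81 in cisplatin and Scgb1a1 0.71 in vehicle. Scgb1a1 in vehicle was also 0.53 as a mean of per-barcode CPM, 0.56 after thinning and 1.17 without barcodes with markers of another type, and Mgst1 in cisplatin 0.60 after thinning. Without interferon-marked barcodes Ifit3 had -1.36 in cisplatin and Scgb3a2 -2.89 in vehicle.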
